A study of Mus musculus with 4 samples.

Results

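The genes described are 41 enzymes and transporters of glucose metabolism, which cover glycolysis, lactate export, the pyruvate dehydrogenase complex, the pentose phosphate pathway and gluconeogenesis. They were taken by gene symbol from the 78028 rows of the count tables, and all 41 had a row. Each table comes from 1 of 4 cultures labelled hepatocyte-like cells, which were made independently from E14TG2a mouse embryonic stem cells under the differentiation protocol A-HIC (advanced hepatic-inducing cocktail). E14TG2a is an established line known to lack a working Hprt gene, and all cultures come from it. They form 1 group, with neither undifferentiated cells nor liver analysed here, and the labels' replicate numbers name them as libraries 1 to 4. According to its design text, the study asked how hepatic and how mature the cells were.

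Glycolysis splits glucose into pyruvate. Pyruvate is either reduced to lactate and exported, or oxidised in mitochondria after the pyruvate dehydrogenase complex has made acetyl-CoA from it. The pentose phosphate pathway branches off after the first phosphorylation and yields NADPH and ribose phosphate. The adult liver also runs the route backwards, making glucose from lactate and amino acids with enzymes of its own for the steps that cannot be reversed, and it uses its own isoforms for steps such as glucose entry (Slc2a2) and pyruvate kinase (Pklr). Pluripotent cells are known for strong glycolysis with lactate release.

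Libraries 1 to 4 held between 29.5 and 40.2 M counts. The markers did not match the label. Of 12 hepatocyte markers 1 was expressed at 1 TPM or more (transcripts per 1 M transcripts, scaled for length) in all 4 libraries, namely Ttr, and 4 were not detected, among them Cyp2e1 and Cyp7a1 with 0 counts. Alb, albumin, had 11, 171, 0 and 12 counts. The summed level of the 12 markers was 7.36, 55.2, 8.75 and 25.1 TPM in libraries 1 to 4. All 10 pluripotency markers were expressed, with sums of 7810, 4432, 7151 and 5346 TPM in libraries 1 to 4. All 12 parietal endoderm markers were expressed too, with sums of 3272, 10393, 3984 and 7940 TPM. The cultures were thus unequal in these sums. Library 2 and then library 4 were high for the parietal endoderm and hepatocyte sums and low for pluripotency. Dppa5a, at a mean of 2749 TPM, was the largest part of the pluripotency sum, which averaged 6185 TPM. Lin28a ran the other way, at 87.8, 188, 141 and 145 TPM in libraries 1 to 4, and Klf4 was lowest in library 3. In bulk RNA, fewer cells of a type and less RNA per cell cannot be told apart. Of 6 erythroid markers 0 were expressed, with a sum of at most 2.00 TPM, and of 6 skeletal muscle markers 1, with at most 9.24 TPM. Of 6 neural markers 4 were expressed, with sums of 99.7 to 130 TPM, above the hepatocyte sum in every library. Most of the neural sum was Tubb3, at a mean of 106 TPM.

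TPM was computed from the deposited counts and the summed exon length of each gene. That length joins the exons of all annotated transcripts. It was 4133 bases for Gapdh, 5379 for Eno1 and 8532 for Hk1, against 1420, 2027 and 4278 for their longest coding transcripts. For Pgk1 the lengths were closer, at 2244 against 1825 bases. Levels compared between genes, and isoform shares, thus depend on the length used, which the SDs between libraries do not cover. Of the 41 genes, 37 were expressed, and 2 were not detected, meaning 3 counts or fewer in every library. Among all 19950 protein-coding rows 63.3% were expressed and 16.9% were not detected. The median of the 41 mean levels was 107 TPM, against 7.54 TPM over all protein-coding rows and 26.2 TPM over the 12635 expressed ones. Together the 41 genes took 1.07%, 1.09%, 1.12% and 0.995% of all counts in libraries 1 to 4. Pgk1, Pkm, Slc2a3 and Eno1 held 45.8% ± 0.263 of those counts (SD, n = 4).

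**Figure D1:**
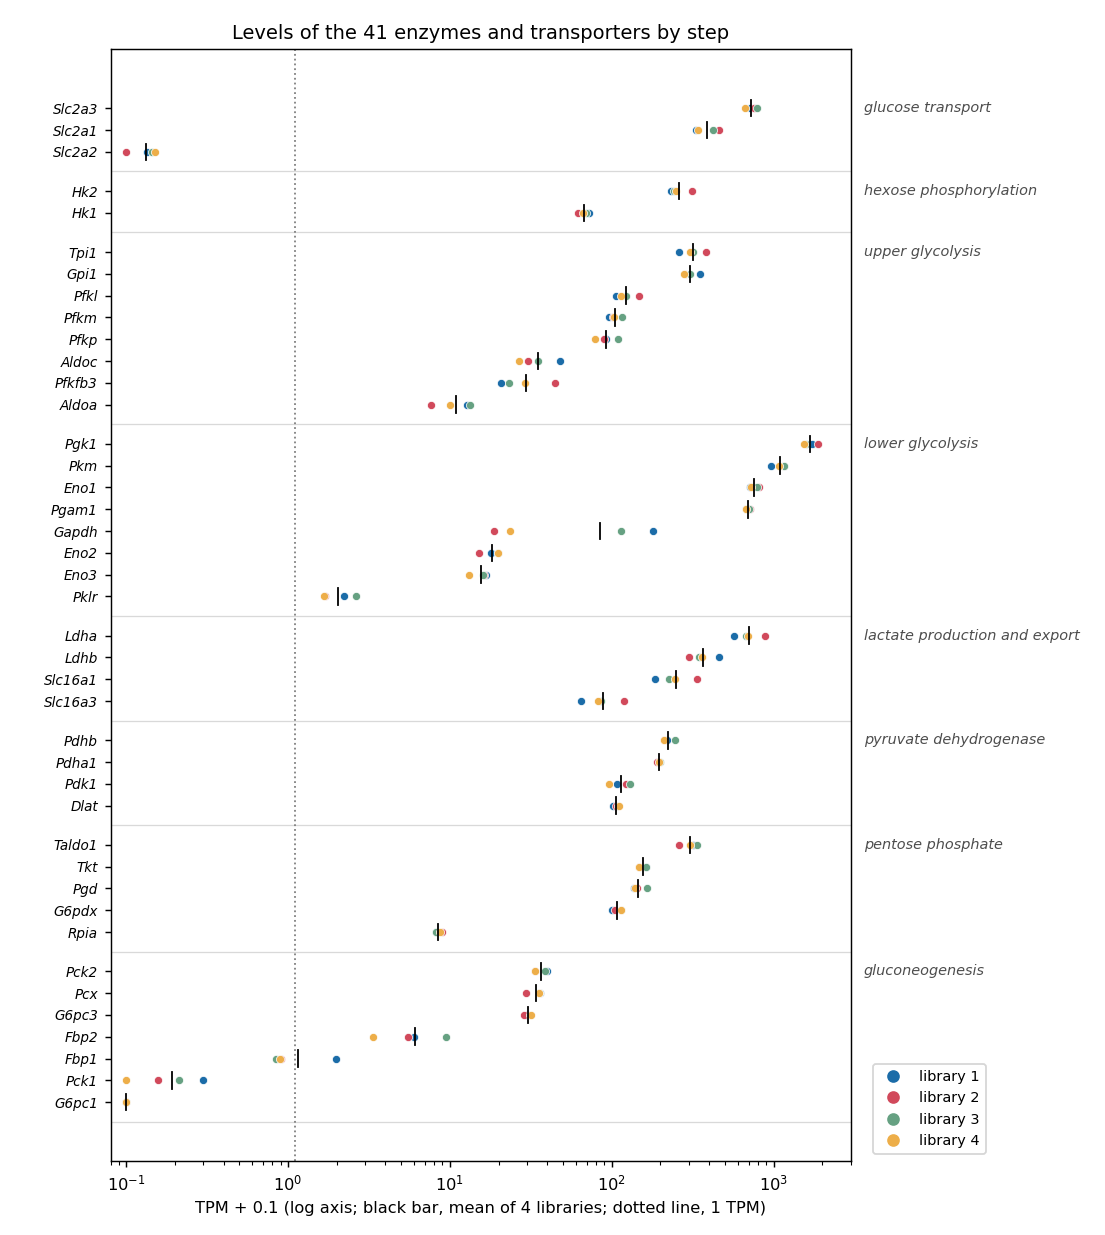
TPM + 0.1 on a log axis for the 41 genes, grouped by step of the pathway, with 1 point per library, a black bar at the mean of 4 libraries and a dotted line at 1 TPM. For most genes the 4 libraries lie close together, whereas Gapdh was spread over 18.5 to 180 TPM, and Slc2a2, Pck1 and G6pc1 stood near 0.

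Among the glucose carriers, transcripts of the general forms were abundant and those of the liver form were near 0. Slc2a3 (GLUT3), the high-affinity carrier of neurons and early embryos, stood at 711, 758, 785 and 663 TPM in libraries 1 to 4. Slc2a1 (GLUT1), the widespread basal carrier, stood at 332, 461, 424 and 343 TPM, below Slc2a3 in every library by a log2 ratio of -0.91 ± 0.16 (SD, n = 4). Slc2a2 (GLUT2), through which hepatocytes take up and release glucose, had 2, 0, 2 and 3 counts. Summed over the libraries, Slc2a1 exceeded Slc2a2 by 12265-fold, with an exact Poisson interval for the 7 Slc2a2 counts of 5953 to 30507-fold. Such intervals cover counting error only and are too narrow if both ends of a read pair were counted.

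Hk2, the inducible hexokinase of muscle and growing cells, stood above Hk1 in every library, at 233, 312, 243 and 249 TPM. Hk1, the constitutive form, stood at 72.4, 61.9, 68.8 and 66.2 TPM and made up 20.8% ± 3.06 of the summed Hk1 and Hk2 level (SD, n = 4). Library 2 had the most Hk2 and the least Hk1. Hkdc1, a further hexokinase relative, stood at 11.4, 35.1, 14.4 and 27.2 TPM and so was highest in libraries 2 and 4. The parietal endoderm and hepatocyte sums were also highest there. The part of these cell states in its level was not tested.

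On the TPM scale, upper glycolysis showed no single dominant phosphofructokinase. Pfkl, the liver subunit, averaged 123 ± 18.0 TPM, Pfkm, the muscle subunit, 104 ± 7.97 TPM, and Pfkp, the platelet subunit, 92.4 ± 12.6 TPM (SD, n = 4 each). Pfkl was above Pfkm in all 4 libraries by a log2 ratio of 0.22 ± 0.21, a mean about the size of its spread, with 0.53 in library 2 and 0.09 to 0.15 in the other 3. Pfkl was above Pfkp in all 4 libraries by 0.41 ± 0.27. Without scaling for length the Pfkl to Pfkp ratio turned to -0.60, so the order of these subunits depends on their exon lengths. For Pfkp the summed exon length was 13401 bases, against 4145 for its longest coding transcript. These lengths were 6675 against 3730 bases for Pfkl and 3340 against 2879 for Pfkm. The Pfkp level is thus the most sensitive to the length used, and which subunit leads is uncertain. Gpi1, the isomerase before this step, averaged 306 ± 33.6 TPM, and Tpi1, which interconverts the triose phosphates, 316 ± 48.8 TPM.

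Aldoa and Aldoc stood far below their neighbours in the pathway. Aldoa, the general muscle-type aldolase, stood at 12.6, 7.58, 13.1 and 9.96 TPM, and Aldoc, the brain-type form, at 47.8, 30.5, 34.9 and 26.7 TPM. The summed level of all members of upper glycolysis was 1016 ± 60.3 TPM, so Aldoa and Aldoc gave a small share of it. In the annotation used, 13.5% of the 50-base windows of the Aldoa transcript were also found in another gene, and 0.86% of its exon bases lay in an exon of another gene. The 6 genes that share windows with it had at most 7 counts each in any library. Overlap with genes of a GRCm39 annotation, the build that the submitters name, was not checked here, so the Aldoa level is uncertain. The cause of the low Aldoa count was not tested, and the Aldoc to Aldoa ratio of 1.68 ± 0.32 (log2, SD, n = 4) rests on it.

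Lower glycolysis held the most abundant transcripts of the pathway, with a summed level of 4347 ± 221 TPM (SD, n = 4). Pgk1, phosphoglycerate kinase, which makes the first ATP of the route, stood at 1722, 1885, 1590 and 1548 TPM and ranked 33 among protein-coding genes by mean level. Pkm, the general pyruvate kinase, stood at 967, 1152, 1156 and 1084 TPM. Eno1, the general enolase, averaged 760 ± 47.3 TPM, and Pgam1, phosphoglycerate mutase, 693 ± 24.6 TPM. In each of these 4 genes the highest library was at most 1.22 times the lowest. Without scaling for length, Pgk1 averaged 995 counts per 1 M, below Pkm (1432), the carrier Slc2a3 (1390) and Eno1 (1075). The lead of Pgk1 and its rank thus depend on exon length. Eno2, the neuronal enolase, and Eno3, the muscle enolase, averaged 18.1 ± 2.19 and 15.4 ± 1.64 TPM. Eno2 made up 2.34% ± 0.354 of its sum with Eno1, and Eno3 1.99% ± 0.212 of its own sum with Eno1.

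Pyruvate kinase transcripts were almost wholly of the Pkm gene. Pklr, which encodes the liver and red cell enzymes, stood at 2.12, 1.58, 2.51 and 1.57 TPM, from 52 to 71 counts per library. The log2 ratio of Pklr over Pkm was -9.08 ± 0.35 (SD, n = 4), and Pklr made up 0.137% to 0.219% of the summed level. Exons of Hcn3 cover 22.0% of the Pklr exon bases, and without strand the reads there cannot be told apart. Counts per gene do not separate the M1 and M2 splice forms of Pkm.

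**Figure D2:**
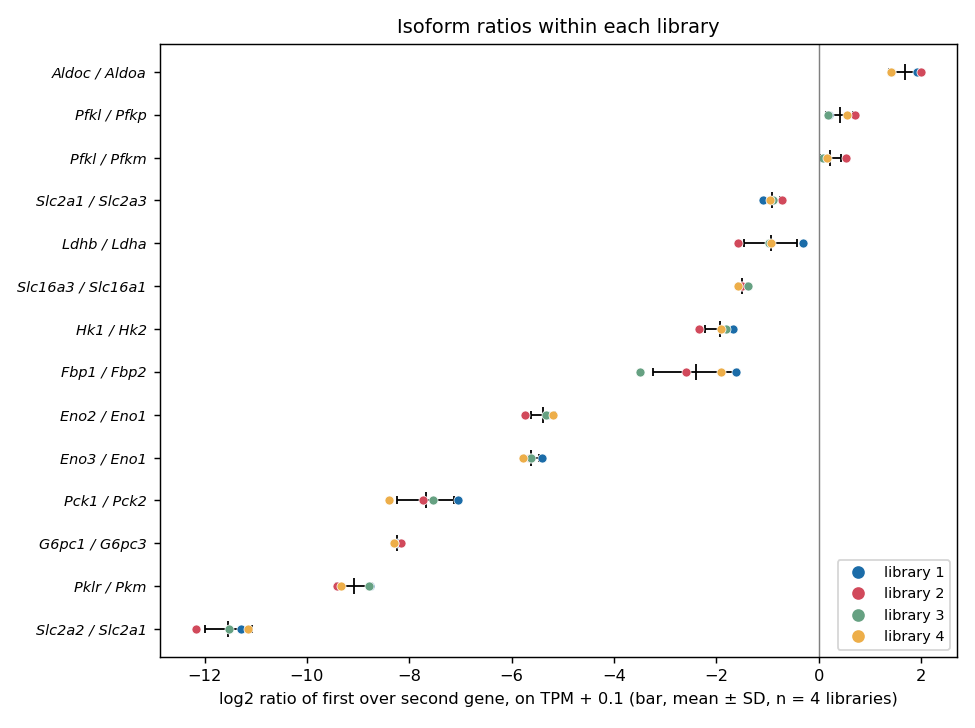
Log2 ratio of the first over the second gene of 14 isoform pairs on the TPM + 0.1 scale, with 1 point per library and a bar for the mean ± SD of 4 libraries. The ratio was below 0 in every library for 11 pairs and above 0 for the 3 pairs Pfkl over Pfkm, Pfkl over Pfkp and Aldoc over Aldoa, and the pairs led by Slc2a2, Pklr, G6pc1 and Pck1 lay lowest.

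Of the 14 isoform pairs, the first gene was lower in all 4 libraries for 11 and higher in all 4 for 3, and no pair changed sign between libraries. With 4 libraries, values of one sign give a two-sided exact sign-flip permutation p of 0.125, the smallest this design allows, so no pair can pass 0.05. The pairs led by the liver-type genes Slc2a2, Pklr, Pck1, G6pc1 and Fbp1 were all among the lower ones. Those led by Pfkl, the liver subunit of phosphofructokinase, were among the higher ones. On the TPM scale, then, not every liver-type gene was the lower of its pair. Without scaling for length, however, the Pfkl to Pfkp ratio was -0.60. The Pfkl to Pfkm ratio in TPM was small outside library 2, at 0.09 to 0.15. The log2 ratios of Slc2a2, Pck1 and G6pc1 depend on the pseudocount, because each had 7 counts or fewer in every library.

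Transcripts for making and exporting lactate were abundant. Ldha, the subunit that favours lactate formation, stood at 565, 886, 677 and 693 TPM in libraries 1 to 4. Ldhb, the heart-type subunit that favours lactate use, stood at 458, 298, 347 and 361 TPM. Library 2 thus had the most Ldha and the least Ldhb, and library 1 the reverse. Ldhb made up 44.8% of the summed level in library 1, 25.2% in library 2, 33.9% in library 3 and 34.3% in library 4, with a log2 ratio of Ldhb over Ldha of -0.94 ± 0.52. Slc16a1 (MCT1), which carries lactate both ways, stood at 184, 334, 225 and 247 TPM. Slc16a3 (MCT4), the export carrier of highly glycolytic cells, stood at 64.5, 118, 86.0 and 82.7 TPM. The Slc16a3 to Slc16a1 ratio was nearly the same in all libraries, at -1.49 ± 0.08 (log2), although both carriers were 1.81 to 1.83 times higher in library 2 than in library 1. Bsg, the chaperone that brings both carriers to the membrane, averaged 813 ± 51.1 TPM.

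Transcripts of the pyruvate dehydrogenase complex varied little, with Pdha1 and Dlat the most even of the 38 genes compared between cultures. Pdha1 and Pdhb, the subunits of the decarboxylase, averaged 195 ± 3.19 and 221 ± 16.2 TPM, and Dlat, the acetyltransferase core, 107 ± 3.58 TPM. Pdk1, the kinase that switches the complex off and a known target of hypoxia factors, stood at 108, 123, 130 and 96.5 TPM. Its relatives Pdk2, Pdk3 and Pdk4 averaged 11.5 ± 1.18, 52.8 ± 4.21 and 9.01 ± 2.45 TPM. Mpc1 and Mpc2, which form the mitochondrial pyruvate carrier, averaged 9.05 ± 1.67 and 8.18 ± 0.744 TPM. These carrier levels lay far below those of the dehydrogenase subunits, although 23.1% of the Mpc1 exon bases lie in another gene and shared reads may be missing from its count. The Mpc2 level was scaled by a long summed exon length of 7344 bases. Exons of other genes also cover 16.2% of the Pdha1 exon bases, 15.3% of those of Pkm, 13.6% of G6pdx and 11.5% of Gpi1.

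Pentose phosphate enzymes were all expressed, with a summed level of 722 ± 49.1 TPM (SD, n = 4). In the oxidative arm, G6pdx, which makes the first NADPH, averaged 108 ± 7.03 TPM and Pgd, which makes the second, 145 ± 12.9 TPM. Pgls and H6pd, the lactonase between them and the reticulum enzyme, averaged 35.5 ± 1.88 and 60.1 ± 6.28 TPM. In the non-oxidative arm, Taldo1, transaldolase, averaged 304 ± 31.7 TPM and Tkt, transketolase, 155 ± 8.40 TPM. Rpia, the ribose phosphate isomerase, was the lowest at 8.40 ± 0.336 TPM, with 8.14, 8.80, 8.10 and 8.56 TPM in libraries 1 to 4. Tigar, a phosphatase known to direct sugar into this pathway, averaged 59.2 ± 10.3 TPM.

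Of the 7 genes of gluconeogenesis, 4 were expressed. Pcx, pyruvate carboxylase, which also refills the citric acid cycle in other tissues, stood at 36.0, 29.5, 35.2 and 35.4 TPM. Pck2, the mitochondrial phosphoenolpyruvate carboxykinase, stood at 39.4, 33.4, 38.9 and 33.5 TPM. Pck1, the cytosolic form that hormones control in the liver, had 7, 2, 3 and 0 counts. Pck2 exceeded Pck1 by 397-fold over the summed libraries, with an exact Poisson interval for the 12 Pck1 counts of 227 to 768-fold. Library 1 held 7 of these counts, and without it the ratio was 677-fold. Fbp1, the liver fructose bisphosphatase, stood at 1.88, 0.810, 0.746 and 0.790 TPM, and the muscle form Fbp2 at 5.93, 5.43, 9.42 and 3.27 TPM. Library 1 alone was above 1 TPM for Fbp1, from 33 counts. G6pc1, the liver phosphatase that releases free glucose, had 0 counts in all 4 libraries. G6pc3, its ubiquitous relative, averaged 30.3 ± 1.40 TPM, and at a floor of 3 counts per library G6pc1 was at least 198-fold lower. Slc37a4, which carries glucose phosphate to that enzyme in the reticulum, averaged 12.9 ± 2.04 TPM.

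Of 45 further genes of the pathway, 36 were expressed and 2 were not detected. Of 15 other isoforms 8 were expressed, and Adpgk, a glucose kinase that uses ADP, was the highest at 29.1 ± 2.12 TPM (SD, n = 4). Pgk2 and Ldhal6b, forms of the testis in mice, had 0 counts. However, 100% of the Ldhal6b exon bases lie in another gene, so shared reads may be missing from its count and its level is uncertain. Among 10 regulators of flux 9 were expressed. The bifunctional enzymes Pfkfb1, Pfkfb2 and Pfkfb4, which set the main activator of phosphofructokinase, averaged 13.2 ± 1.19, 6.13 ± 0.938 and 7.68 ± 1.09 TPM, against 29.3 ± 10.8 TPM for Pfkfb3, the form with the strongest kinase activity. All 10 genes of other steps were expressed, with Dld, the shared dehydrogenase subunit, at 147 to 171 TPM. Among 10 transcription factors 9 were expressed. Hif1a, a hypoxia factor that drives glycolytic genes, stood at 143, 214, 154 and 190 TPM, Epas1, its relative, at 57.1, 236, 80.6 and 171 TPM, and Myc at 36.7, 56.3, 43.6 and 48.7 TPM. All 3 were higher in libraries 2 and 4 than in libraries 1 and 3, and so were Nr3c1 and Srebf1. The other listed factors, Arnt, Mlx, Mlxipl, Foxo1 and Ppargc1a, did not show this order. The share of all genes with this order was not counted, and the part of these factors in the levels of the 41 genes was not tested. Mlxipl (ChREBP), which answers to glucose in the liver, averaged 4.03 ± 1.47 TPM, and Ppargc1a, a coactivator of gluconeogenic genes, had 0 to 8 counts.

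The cultures were then set against each other, using log2(CPM + 1), where CPM stands for counts in 1 M with TMM scaling and no length correction. Of the 41 genes, 38 passed the filter on low counts, and Slc2a2, Pck1 and G6pc1 did not. The median SD of the 38 was 0.156, against 0.172 for all 17398 genes tested. The steadiest was Pdha1, with an SD of 0.018, a smaller one than in all but 0.27% of genes tested, followed by Dlat at 0.040 and Pgam1 at 0.045. Apart from Gapdh, the largest SDs were those of Pfkfb3 (0.484), Fbp2 (0.421), Aldoc (0.355), Slc16a1 (0.352) and Slc16a3 (0.351). Of the 38 genes, 13 were highest in library 2, 10 in library 1, 11 in library 3 and 4 in library 4. Over all genes tested these shares were 29.2%, 29.7%, 21.2% and 19.9%.

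**Figure D3:**
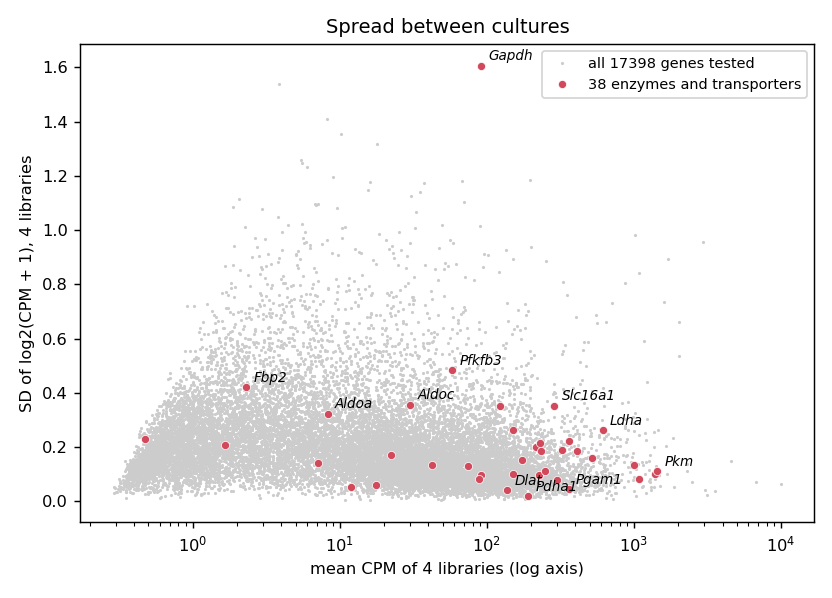
SD over the 4 libraries of log2(CPM + 1) against mean CPM on a log axis, for the 17398 genes tested (grey) and the 38 enzymes and transporters among them (red). Gapdh had the largest SD of all genes at 1.61, Pfkfb3 was next among the 38 at 0.484, and Pdha1 stood lowest of the 38 at 0.018.

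The edgeR quasi-likelihood test then set each library against the other 3. At 0.05 after Benjamini-Hochberg adjustment, 0 of 38 genes were called for any library, where 0% of all genes tested were called. DESeq2 called 0 of the 38 to 40 genes that it gave an adjusted p, against 0.0719% of all such genes for library 1, 0.446% for library 2, and 0.0102% for each of libraries 3 and 4. In these tests the single library has no spread of its own and is assumed to vary like the other 3, so the p-values rank genes and do not show that a library differs. At an unadjusted p under 0.05, library 2 had 8 of the 38 genes (21.1%), against 7.38% of all genes tested. Of these, 7 were higher (18.4%, against 4.68%) and 1 was lower (2.63%, against 2.7%). Library 1 had 5 genes (13.2%, against 5.32%), with 4 higher (10.5%, against 2.31%) and 1 lower (2.63%, against 3.01%). Library 3 had 0 genes, against 1.57% of all genes, 0.615% higher and 0.96% lower. Library 4 had 0 genes, against 1.55% of all genes, 1.07% higher and 0.477% lower.

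The adjusted calls depended on which libraries were compared. Library 2 without library 4 had 9 of the genes called, among them Pfkfb3, Slc16a1, Slc16a3, Ldha and Hk2, where 14.4% of all genes were called. Library 1 without library 3 had 7 called, among them Aldoc and Ldhb, where 12.4% of all genes were. Library 3 without library 1 had 2 called (Gapdh and Pfkfb3), against 7.35% of all genes, and library 4 without library 2 had 2 (Aldoc and Gapdh), against 7.8%. With no filter on low counts, library 2 had 4 called, against 1.19% of all genes, and library 1 had 1, against 0.836%.

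The genes higher in library 2 with an unadjusted p under 0.05 were Pfkfb3, Slc16a1, Slc16a3, Hk2, Ldha, Pfkl and Tpi1. Pfkfb3 stood at 44.5 TPM in library 2, against 20.5, 23.0 and 29.1 TPM in libraries 1, 3 and 4, a log2 difference of 0.88 (edgeR, unadjusted p = 0.00353, adjusted p = 0.626). Slc16a1 differed by 0.61 (unadjusted p = 0.00846), Slc16a3 also by 0.61, Ldha by 0.46 (0.0152) and Hk2, Pfkl and Tpi1 by 0.36 to 0.37 (0.0130, 0.0220 and 0.0329), all with the same adjusted p. Taldo1 was the gene lower in library 2, at -0.29 (unadjusted p = 0.0476). In library 1, Aldoc was higher by 0.66 (edgeR, unadjusted p = 0.0117, adjusted p = 0.723), Ldhb by 0.47 (0.0152), Fbp1 by 1.27 (0.0186) and Gpi1 by 0.31 (0.0412), and Slc16a3 was lower by a difference of -0.55 (0.0482). Library 2 was also the library with the highest parietal endoderm sum, at 10393 TPM, and the highest hepatocyte sum, at 55.2 TPM. Its pluripotency sum, at 4432 TPM, was the lowest. Library 1 had the reverse, at 3272, 7.36 and 7810 TPM. The part of these cell states in the differences was not tested.

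**Figure D4:**
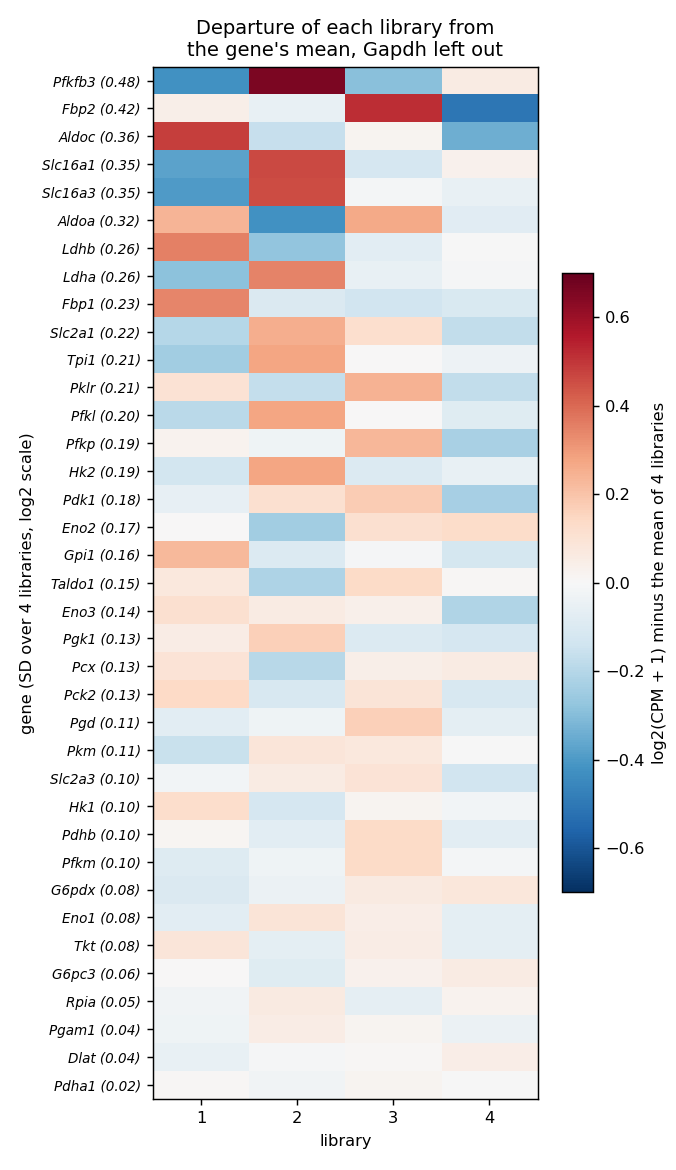
Departure of each library from the gene's mean over 4 libraries, on the log2(CPM + 1) scale, for 37 genes ordered by their SD (in brackets), with Gapdh left out. Red is above and blue below the mean. Pfkfb3, Slc16a1, Slc16a3, Ldha, Tpi1, Pfkl and Hk2 were highest in library 2, Aldoc, Ldhb and Fbp1 were highest in library 1, Fbp2 was highest in library 3 and lowest in library 4, and Pdha1 was nearly even.

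The promoters are shown of 4 genes that stood furthest above their own mean in library 2 and of 2 that did so in library 1, with a mean of at least 10 CPM and Gapdh set apart. Each is the window from 250 bases before to 50 after a RefSeq gene start, on the build GRCm38.p6, written 5′ to 3′ on the strand of the gene. The last bases of each window were found in an annotated transcript of its gene, except for Ldha, where they were not. Capitals mark the letters ACGTG or GCGTG on either strand, the core of the hypoxia response element. The first 4 genes were highest in library 2 and the last 2 in library 1.
Pfkfb3, chr2:11553880-11554179, minus strand: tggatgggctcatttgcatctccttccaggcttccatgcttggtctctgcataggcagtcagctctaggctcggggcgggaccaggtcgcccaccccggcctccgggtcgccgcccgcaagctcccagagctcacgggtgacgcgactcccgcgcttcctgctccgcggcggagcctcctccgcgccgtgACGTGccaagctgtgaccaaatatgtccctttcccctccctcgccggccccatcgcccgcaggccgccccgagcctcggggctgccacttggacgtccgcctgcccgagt
Slc16a1, chr3:104638414-104638713, plus strand: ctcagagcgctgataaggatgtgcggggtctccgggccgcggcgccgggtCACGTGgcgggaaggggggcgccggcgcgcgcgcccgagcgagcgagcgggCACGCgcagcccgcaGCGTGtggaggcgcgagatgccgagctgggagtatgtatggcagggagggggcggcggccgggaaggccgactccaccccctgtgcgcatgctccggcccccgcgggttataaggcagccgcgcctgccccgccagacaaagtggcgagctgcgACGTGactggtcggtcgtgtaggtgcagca
Slc16a3, chr11:120948817-120949116, plus strand: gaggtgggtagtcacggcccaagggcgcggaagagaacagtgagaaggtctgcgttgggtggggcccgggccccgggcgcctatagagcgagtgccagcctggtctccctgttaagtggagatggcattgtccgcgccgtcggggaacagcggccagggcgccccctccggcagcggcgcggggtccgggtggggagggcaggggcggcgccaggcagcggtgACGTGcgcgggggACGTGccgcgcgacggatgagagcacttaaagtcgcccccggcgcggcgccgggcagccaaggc
Ldha, chr7:46845554-46845853, plus strand: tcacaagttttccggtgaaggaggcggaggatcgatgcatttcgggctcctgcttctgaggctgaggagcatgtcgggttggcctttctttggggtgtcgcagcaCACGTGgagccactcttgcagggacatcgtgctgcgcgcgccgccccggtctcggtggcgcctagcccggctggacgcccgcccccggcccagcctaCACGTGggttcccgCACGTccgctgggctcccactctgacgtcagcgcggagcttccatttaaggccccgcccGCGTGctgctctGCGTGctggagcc
Aldoc, chr11:78322823-78323122, plus strand: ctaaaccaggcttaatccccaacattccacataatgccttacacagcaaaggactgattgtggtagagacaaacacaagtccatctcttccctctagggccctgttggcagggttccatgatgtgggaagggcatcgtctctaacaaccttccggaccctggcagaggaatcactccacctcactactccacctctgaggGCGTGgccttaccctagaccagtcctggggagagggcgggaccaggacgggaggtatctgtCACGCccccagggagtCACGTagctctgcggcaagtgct
Ldhb, chr6:142507908-142508207, minus strand: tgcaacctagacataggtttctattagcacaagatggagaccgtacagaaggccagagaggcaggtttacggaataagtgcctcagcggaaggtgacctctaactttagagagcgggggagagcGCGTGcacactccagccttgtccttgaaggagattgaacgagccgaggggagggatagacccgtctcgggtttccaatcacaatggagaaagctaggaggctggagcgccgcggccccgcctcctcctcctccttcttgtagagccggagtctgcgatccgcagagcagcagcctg

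All 6 windows held at least 1 match. Pfkfb3 and Ldhb had 1 match each, Slc16a3 had 2, Aldoc 3, Slc16a1 5 and Ldha 7, counting only the windows shown. RefSeq lists another window for Pfkfb3, with 4 matches, for Ldha, with 2, and for Aldoc, with 1. The palindrome CACGTG, an E-box, counts as 2 overlapping matches, and in the windows shown it occurred once in Slc16a1 and 2 times in Ldha. The other Pfkfb3 window held 1. RefSeq windows were found for 40 of the 41 genes, and 31 of them (77.5%) had a match in at least 1 window, against 46.7% of all 27025 genes with a window. A gene with more windows has more room for a match. Counted by window, 69.6% of the 56 windows of these genes had a match, against 43.8% of all 32851. The windows of the 40 genes also had more G and C, with a median of 59.3% against 52.7% over all windows. CACGTG was in a window of 7 of the 40 (17.5%), against 8.1% of all genes. A match describes letters and does not show that a factor binds there.

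Gapdh, the triose phosphate dehydrogenase widely used as a reference gene, stood apart from the other genes of the pathway. It stood at 180, 18.5, 113 and 23.4 TPM in libraries 1 to 4, from 7703, 777, 3690 and 1008 counts. Libraries 1 and 3 were thus high and libraries 2 and 4 low, with a 9.75-fold range. Parietal endoderm markers ran the other way, with sums of 3272, 10393, 3984 and 7940 TPM. So did the hepatocyte sum, at 7.36, 55.2, 8.75 and 25.1 TPM. The part of these cell states in the Gapdh level was not tested. The Gapdh SD of 1.61 on the log2 scale was the largest of all 17398 genes tested. The step before it in the pathway, Tpi1, had a range of 1.45-fold and the step after it, Pgk1, 1.22-fold. Set singly against the other 3, library 2 stood lower by a log2 difference of -2.52 and library 4 by -2.16. Library 1 stood higher by 1.83 and library 3 by 0.59 (edgeR). Gapdh was not called in these main fits, but it was called in some fits that left out a library or the filter on low counts.

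The Gapdh count carried more sequence shared with other genes than any other of the 41. Of the 50-base windows of its transcript, 82.5% were found letter for letter in another annotated gene, and 213 pseudogenes shared at least 1 window. The 95 rows of pseudogenes that hold 5% or more of its windows had 2998, 2677, 2271 and 2750 counts in sum. Scaled by library totals, their sum was even, at 79.3, 66.7, 76.9 and 68.5 CPM, while the Gapdh row ranged from 204 to 19.4 CPM. With these rows added, Gapdh stood at 283, 86.0, 202 and 93.7 CPM, still a 3.29-fold range. How reads with several alignments were counted is unknown here, and its part in the Gapdh level was not tested.

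**Figure D5:**
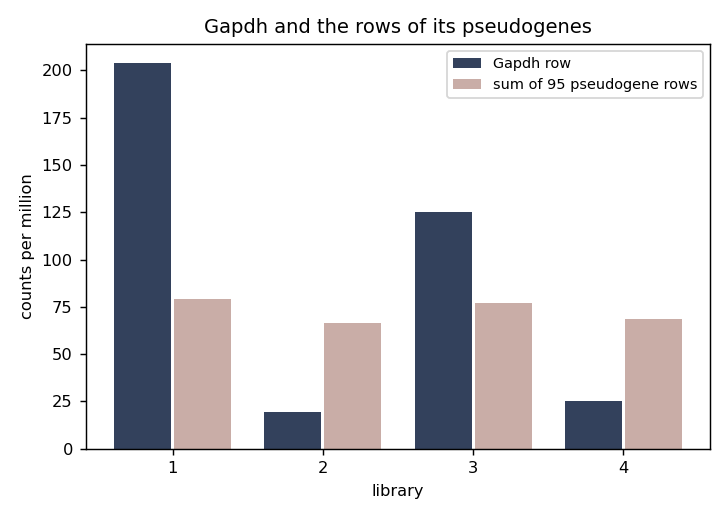
CPM in the Gapdh row (dark) and in the sum of 95 rows of its pseudogenes (light) for libraries 1 to 4. The Gapdh row stood at 204, 19.4, 125 and 25.1 CPM, while the sum of the pseudogene rows stayed between 66.7 and 79.3 CPM.

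Shared sequence was common among the other abundant genes. In 19 of the 41 genes no window was found in another gene, and in 8 it was 25% or more. Eno1 (72.2%), Pgk1 (68.0%), Pgam1 (41.5%) and Pkm (34.4%) were among these, with SDs of 0.082, 0.133, 0.045 and 0.110. Pdhb (30.3%), Ldhb (27.0%) and Gpi1 (25.3%) had SDs of 0.097, 0.263 and 0.160, so that of Ldhb was above the median of 0.172 over all genes tested and those of the other 6 below it. Adding their pseudogene rows raised the means of Eno1, Pgk1, Pgam1 and Pkm by less than the SD between libraries. The row Eno1b, annotated as protein-coding, holds 70.5% of the Eno1 windows and had 9779, 10974, 8660 and 10075 counts, or 24.6% to 25.8% of the Eno1 count. With it added, Eno1 averaged 1344 ± 72.5 CPM, against 1075 ± 54.2 CPM for its own row (SD, n = 4), so the Eno1 level given is uncertain. For these genes, shared reads that were left uncounted would make the true level higher than the one given.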

How the data were processed

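Polyadenylated RNA of 4 A-HIC cultures was sequenced from both ends without strand information, per the labels' protocols. The authors deposited raw counts per gene, 1 table per library, and the submitters' processing notes name STAR, featureCounts and the build GRCm39 (mm39). How multiply aligned reads were treated was not given in the sources used here, nor were versions. Even numbers made up 60.0% to 62.6% of counts from 1 to 8, so both ends of a pair may have been counted. Any 2 libraries differed in at least 33022 rows. Overlapping genes on opposite strands cannot be told apart.

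TPM used the summed exon lengths of GENCODE M21 (GRCm38), matched to 48830 rows, which held 98.7% to 98.9% of counts. G6pc1 was matched by hand to the older symbol G6pc. A gene was called expressed when every library had at least 1 TPM, and not detected at 3 counts or fewer in each (0.0747 to 0.102 CPM). Log ratios used a pseudocount of 0.1. Each library was tested against the other 3 with edgeR 4.0.16 (TMM, filterByExpr, quasi-likelihood test, Benjamini-Hochberg over 17398 genes), the lone library being assumed to vary like the rest, and with DESeq2 1.42.0 as an alternative. The edgeR step was tested on simulated data. Python 3.11.15 and R 4.3.3 were used.

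All 41 members may be named, with 45 further pathway genes from lists, and isoform pairs, the most abundant, the undetected, and the most and least variable members were given by library. The members, lists and pairs were chosen with earlier results of these data known. Some genes of the lists are not reported here. Pseudogene and Eno1b rows found by shared sequence, pairs without Aldoa and the spread without Gapdh were added after the data were seen.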

Additional observations from a re-analysis of the deposited data

Results flagged for a closer look

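In 3 of 56 groups of 4 values, 1 library lay so far from the other 3 that its gap to the nearest took up more of the whole range than Dixon's 95% critical value, which chance passes in about 1 group of 20. For Fbp1 the gap was 0.944 of the range, with library 1 at 1.88 TPM and the other 3 at 0.746 to 0.810 TPM. For Pcx it was 0.880, with library 2 at 29.5 TPM and the other 3 at 35.2 to 36.0 TPM. For the log2 ratio of Pfkl over Pfkm it was 0.864, with library 2 at 0.53 and the other 3 at 0.09 to 0.15. Library 2 had the highest parietal endoderm and hepatocyte sums, and the part of these cell states in its Pcx and Pfkl values was not tested.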

How the results depend on the processing

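No paired analysis was possible because all libraries belong to 1 group. The count of expressed genes was 35 at 5 TPM and 38 at 0.5 TPM, and the count of pairs with the first gene lower was 11 to 12 under all alternatives. The Pfkl to Pfkp ratio turned to -0.60 with CPM. Of 14 ratios, 4 moved by more than their SD with a pseudocount of 1, 3 with 0.01 and 10 with CPM. The median SD of the genes between libraries was 0.173 with library totals alone (all genes 0.176) and 0.140 with no filter on low counts, where that of all genes was 0.103 and so lower, the reverse of the main order, and 0.123 to 0.158 when 1 library was left out. Without a filter, edgeR called 1 gene for library 1 (Gapdh) and 4 for library 2 (Gapdh, Pfkfb3, Slc16a1, Slc16a3). Leaving out 1 library gave 0 to 7 calls for library 1, 0 to 9 for library 2, 0 to 2 for library 3 and 0 to 2 for library 4. The nonzero counts arose without library 3, 4, 1 and 2 in that order. There the spread comes from the 2 libraries on the other side. Adding rows typed as pseudogenes moved no gene's mean by more than its SD, but adding Eno1b moved Eno1 to 1344 CPM. Depth limits the values of genes near 0 counts.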
